A study of Mus musculus with 4 samples.

Results

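The genes described here make, edit or cut heparan sulfate, a sulfated sugar chain carried by proteins of the cell surface and the extracellular matrix. They were chosen by symbol: the extracellular sulfatase genes Sulf1 and Sulf2, the polymerase genes Ext1 and Ext2, the N-deacetylase/N-sulfotransferase genes Ndst1 and Ndst2, the O-sulfotransferase genes Hs2st1, Hs6st1 and Hs6st2, and the heparanase gene Hpse. Of these 10 genes, 9 had a line in the deposited table of 12866 lines, and Hs6st2 is not analysed here. RNA came from Neuro-2A cells, a mouse neuroblastoma line labelled as Swiss Albino in strain, 16 h after lipofection with a pRK5 plasmid. The plasmid carried Zac1, a zinc-finger transcription factor encoded by the imprinted gene Plagl1, in 2 libraries. It carried the bacterial chloramphenicol acetyltransferase gene (CAT), the negative control, in the other 2 libraries. Each library came from its own transfection and is named by its number in the labels, 9 or 12. The comparison asks which transcripts change in abundance when Zac1 is overexpressed.

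Heparan sulfate is polymerised in the Golgi by the complex of EXT1 and EXT2, which adds glucuronic acid and N-acetylglucosamine in turn to a short sugar stem on a core protein. NDST enzymes then swap acetyl groups of the chain for sulfate, and the sulfotransferases encoded by Hs2st1, Hs6st1 and Hs6st2 place further sulfate groups on uronic acid and glucosamine residues. After the chain has reached the cell surface, SULF1 and SULF2 remove some of the glucosamine sulfates that the Hs6st enzymes added, and heparanase cuts the chain into fragments. The sulfation pattern decides which ligands, such as FGFs and WNTs, the chain binds and releases.

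The assay was digital gene expression, which counts a short tag next to a DpnII site (GATC) of a polyadenylated transcript. Expected tags were taken from GENCODE M21 transcripts of the mouse build GRCm38 that are labelled as having a consensus coding sequence (CCDS). They were not taken from other transcripts of these genes. For every one of the 10 genes, the last GATC followed by at least 16 bases lay in the 3' untranslated region. This was checked in the longest of these transcripts for each tag. None of the expected tags, a GATC with the 16 bases after it, occurred in a transcript of another gene. The deposited table gives 1 value per gene and no tags, so the tags below are those the transcripts predict. They are shown for both sulfatase genes and for Hs6st1, whose product adds sulfate of the kind that sulfatases take off, with the DpnII site in capitals. Sulf2, on chromosome 2, has 2 expected tags because its annotated transcripts end at different places. The tag of the longer form (Sulf2-202) starts 658 bases before the end of the transcript, and that of the shorter form (Sulf2-201) starts 238 bases before it. Sulf1 and Hs6st1, both on chromosome 1, have 1 expected tag each.
Sulf2, longer form: GATCtgtgaagcaaagcatc
Sulf2, shorter form: GATCaaggataatcccttga
Sulf1: GATCacatattgtttagcgt
Hs6st1: GATCtgttctatacatactg
The value of Sulf2 below may hold tags of either form, and the table does not tell them apart.

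Recovered tag totals were 12442532 and 12812457 in Zac1 replicates 9 and 12, against 11578920 and 13840674 in CAT replicates 9 and 12. Plagl1 had 3497 and 1492 recovered counts in the Zac1 libraries and 0 in both CAT libraries. Zac1 replicate 9 stood farthest from the control libraries. The SD over tested genes of its log2 difference was 0.710 from CAT replicate 9 and 0.743 from CAT replicate 12. For Zac1 replicate 12 these SDs were 0.576 and 0.529, and between the 2 CAT libraries the SD was 0.453. Between the 2 Zac1 libraries it was 0.557, so they differed from each other more than Zac1 replicate 12 differed from CAT replicate 12. Markers of sympathetic neuroblastoma were present in every library. Phox2a, a transcription factor gene of noradrenergic neurons, had a normalised count of 2342 and 3456 in the Zac1 libraries, against 3592 and 3683 in the CAT libraries, and Hand2, another such gene, had 2715 and 3860 against 3907 and 3738. The catecholamine enzyme genes were lower in count, with Dbh at 75.7 and 124 against 96.8 and 150 and Th at 59.3 and 42.5 against 65.4 and 60. Other markers leaned the other way in 1 or both Zac1 libraries, with Gata2 at 6715 and 4642 against 4548 and 4472, Tubb3 at 9312 and 6940 against 8273 and 7230, and Chga at 5779 and 3641 against 4900 and 4272. None of the markers tested passed the test in either direction. Glial markers, mostly Mbp, summed to 442 and 414 in the Zac1 libraries, against 351 and 253 in the CAT libraries, with no line for Sox10. Fibroblast markers summed to 17.4 and 35.6 against 16.6 and 15, endothelial markers to 21.4 and 14.8 against 22.3 and 27.3, and macrophage markers to 10.7 and 7.9 against 12.1 and 7.45. Col3a1, Lum, Twist2, Fap, Kdr, Tie1, Ptprc, Emr1 and Aif1 had no line. The part of these markers in the results below was not tested.

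Among the heparan sulfate genes, only Sulf2 (gene ID 72043) passed the test, as higher after Zac1 transfection. None was called lower, and neither was any other of the 11433 tested genes. The normalised count of Sulf2 was 131 in Zac1 replicate 9 and 76.1 in Zac1 replicate 12, against 22.2 in CAT replicate 9 and 24.4 in CAT replicate 12. Both Zac1 libraries lay far above both CAT libraries, and they differed more from each other than the CAT libraries did. The group means were 104 ± 39 in Zac1 cells and 23.3 ± 1.54 in CAT cells (SD, n = 2 each). On the log2(value + 1) scale the change was 2.05 ± 0.38 (SE; 95% interval 1.24 to 2.87), a rise of 4.16-fold (limma, Benjamini-Hochberg adjusted p = 0.0123). In recovered counts Sulf2 had 212 tags in the Zac1 libraries and 46 in the CAT libraries. Scaled to library totals the ratio of these counts was 4.64, with an exact 95% interval of 3.36 to 6.53 that covers counting error only. In bulk RNA a large rise in a share of the cells and a smaller rise in all of them cannot be told apart. The log2 fold change was 1.99 without CAT replicate 9 and 2.12 without CAT replicate 12 (limma adjusted p = 0.00762 and 0.00259), in fits where the lone CAT library is assumed to vary like the Zac1 libraries. It was 1.67 without Zac1 replicate 9 (limma adjusted p = 0.766) and 2.44 without Zac1 replicate 12 (0.127), where 1 of 11433 genes passed in either fit. The call also did not hold in limma without a variance trend (adjusted p = 0.054).

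**Figure D1:**
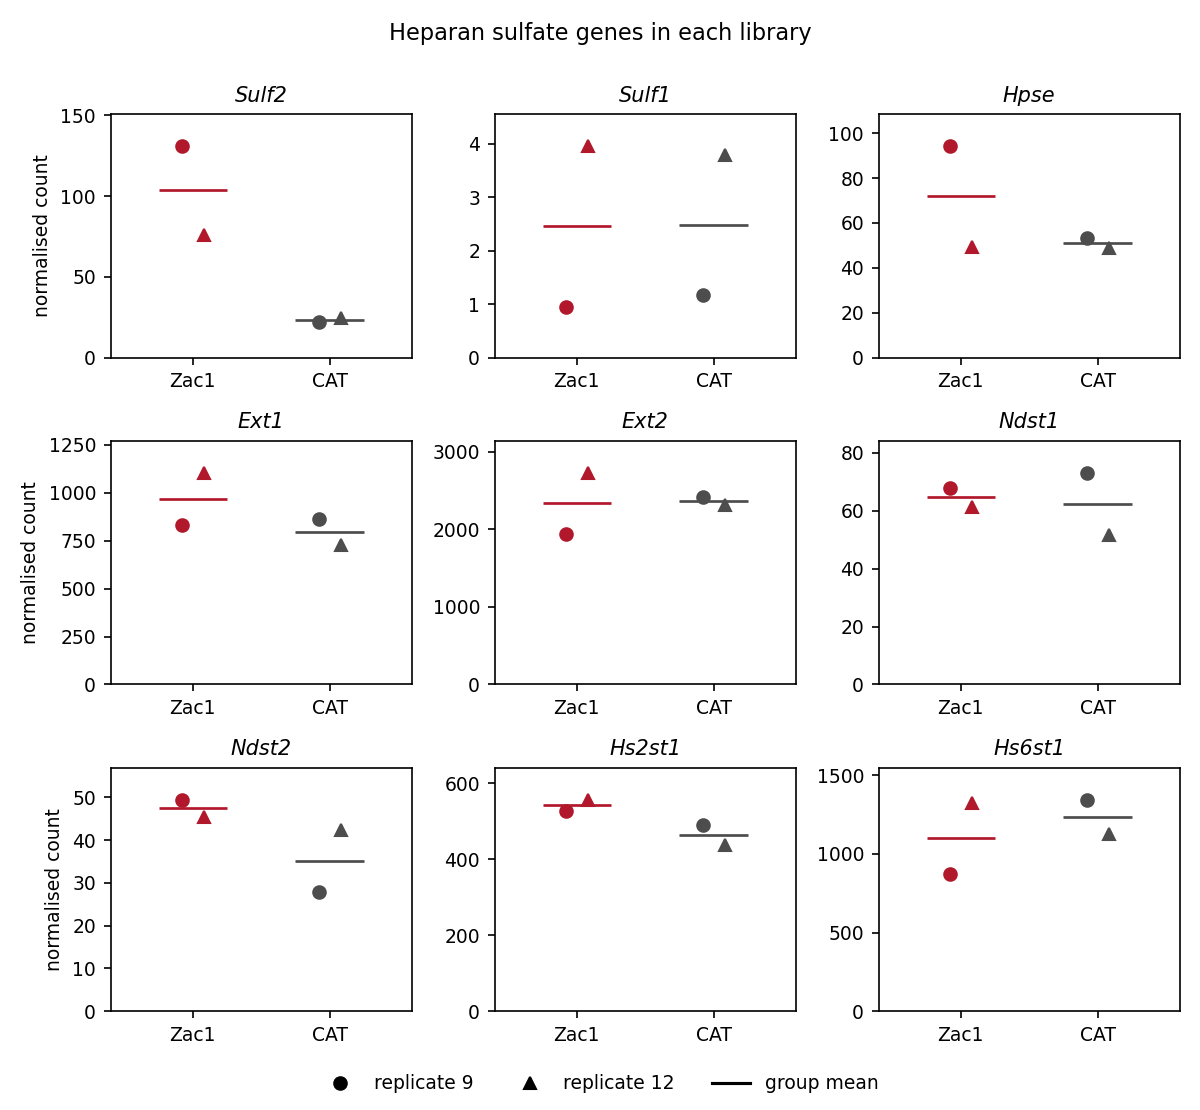
Normalised count (vertical axes, each from 0) of 9 heparan sulfate genes in the 2 Zac1 libraries (red) and the 2 CAT libraries (grey). Circles are replicate 9, triangles replicate 12 and lines the group means, and for Sulf2 both Zac1 points, at 131 and 76.1, stand above both CAT points.

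That made 1 of the 8 genes tested a call as higher and 0 a call as lower, beside 0.962% of 11433 tested genes called higher and 0% called lower. At an unadjusted p under 0.05 limma also found Sulf2 alone among the 8, while 598 genes (5.23%) were higher and 110 (0.962%) lower over the whole table. That balance depended on the processing, with 422 higher and 426 lower after a correction of each library for transcript GC content, and 1121 higher and 1300 lower without Zac1 replicate 12. Run on whole tags, the quasi-likelihood test of edgeR gave Sulf2 an adjusted p of 0.00795 and DESeq2 gave 0.00227, and neither called another of the 8 genes, beside 1.31% and 1.25% of tested genes called higher by these tools. In limma the median change on the log2 scale was 0.25 over these 8 genes, against -0.01 over all genes tested. In 3 of the 8 genes, namely Sulf2, Ndst2 and Hs2st1, both Zac1 libraries lay above both CAT libraries, as they did in 17.2% of all tested genes. In 0 of the 8 did both lie below, as in 16.7% of all tested genes.

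Sulf1 (gene ID 240725), which encodes the second extracellular sulfatase, was close to absent. It had 1 and 4 recovered counts in Zac1 replicates 9 and 12, against 1 and 4 in CAT replicates 9 and 12. The groups overlapped completely, and its mean of 2.47 was under the minimum of 10 for a test. At this depth the ratio of the summed counts, 1.01, has an exact 95% interval of 0.232 to 4.37 for counting error only. On this measure the ratio of Sulf2 was 4.64, with an interval of 3.36 to 6.53 that overlaps the interval of Sulf1. Heparanase, encoded by Hpse (gene ID 15442), is the other member that acts on the finished chain. Its normalised count was 94.3 and 49.4 in Zac1 replicates 9 and 12, against 53.2 and 48.8 in CAT replicates 9 and 12. Only Zac1 replicate 9 was high, and Zac1 replicate 12 lay within the range of the CAT libraries. The log2 fold change of Hpse was 0.42 (95% interval -0.37 to 1.20; limma adjusted p = 0.983), and it was -0.04 without Zac1 replicate 9.

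Neither polymerase gene passed the test. Ext1 (gene ID 14042) stood at a normalised count of 834 and 1104 in Zac1 replicates 9 and 12, against 862 and 727 in CAT replicates 9 and 12. Zac1 replicate 12 was the highest library and the groups overlapped (log2 fold change 0.28, 95% interval -0.20 to 0.76; limma adjusted p = 0.983). Ext2 (gene ID 14043), the most highly counted of these genes, had 1938 and 2727 in the Zac1 libraries, against 2410 and 2316 in the CAT libraries. Here the Zac1 libraries were the lowest and the highest of the 4, with both CAT libraries between them. The log2 fold change of Ext2 was -0.04 (95% interval -0.51 to 0.43; limma adjusted p = 0.991), and it was 0.21 without Zac1 replicate 9 and 0.02 when libraries were scaled to equal totals. As folds these intervals run from 0.868 to 1.69 for Ext1 and from 0.703 to 1.35 for Ext2, and they do not show that either gene was unchanged.

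The N-deacetylase/N-sulfotransferase genes act early in the modification of the chain. Ndst1 (gene ID 15531) had a normalised count of 68 and 61.3 in Zac1 replicates 9 and 12, against 73.1 and 51.5 in CAT replicates 9 and 12. Both Zac1 values fell between the CAT values (log2 fold change 0.07, 95% interval -0.65 to 0.79; limma adjusted p = 0.990). This sign turned to -0.08 after the correction for GC content and to -0.18 without CAT replicate 12, and the value was -0.00139 without Zac1 replicate 9. Ndst2 (gene ID 17423) had 49.5 and 45.5 in the Zac1 libraries, against 27.9 and 42.3 in the CAT libraries. The groups did not overlap, but the CAT libraries differed more from each other than the nearest Zac1 and CAT libraries did. Its log2 fold change was 0.45 (95% interval -0.38 to 1.29; limma adjusted p = 0.983).

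Among the O-sulfotransferase genes, Hs2st1 (gene ID 23908), which encodes the uronic acid sulfotransferase, had a normalised count of 527 and 557 in Zac1 replicates 9 and 12, against 489 and 437 in CAT replicates 9 and 12. Both Zac1 libraries were higher by a small margin (log2 fold change 0.23, 95% interval -0.24 to 0.70; limma adjusted p = 0.983). Hs6st1 (gene ID 50785), whose product adds glucosamine sulfates that SULF2 can remove, had 870 and 1326 in the Zac1 libraries, against 1345 and 1127 in the CAT libraries. Zac1 replicate 9 was the lowest library by far, while Zac1 replicate 12 lay within the CAT range. The log2 fold change of Hs6st1 was -0.20 (95% interval -0.70 to 0.31; limma adjusted p = 0.983). It was 0.11 without Zac1 replicate 9, -0.50 without Zac1 replicate 12 and -0.49 after the correction for GC content. For Hpse and Hs6st1 the distance between the groups rested on 1 library, in opposite directions.

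**Figure D2:**
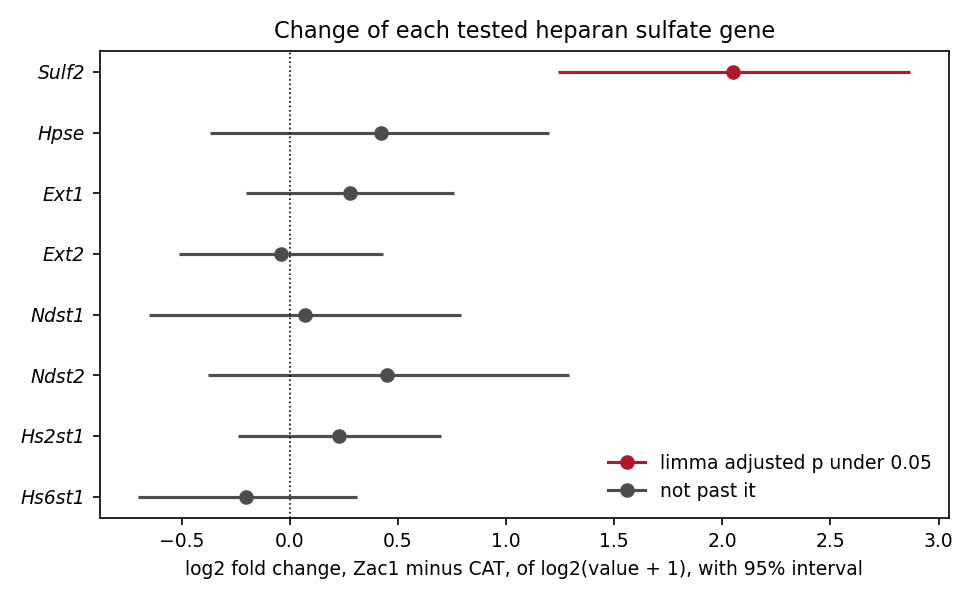
Log2 fold change, Zac1 minus CAT, of log2(value + 1) (horizontal axis) for the 8 tested genes, with the 95% interval from limma as a line. The interval of Sulf2 runs from 1.24 to 2.87, and the intervals of the other 7 genes include 0.

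The libraries of the Zac1 group did not rank alike across these genes. Of the 8 tested, 4 had more in Zac1 replicate 9 than in Zac1 replicate 12, namely Sulf2, Hpse, Ndst1 and Ndst2, and the others were lower. Over all tested genes 48.3% were higher in Zac1 replicate 9. The transcript GC content of Sulf2 was 53.3%, against a median of 50.1% over all tested genes, and after the correction for GC content its log2 fold change was 1.95 (limma adjusted p = 0.0484). The genes whose 4 values, centred on their own mean on the log2 scale, lay nearest to those of Sulf2 were Spib, an ETS-family transcription factor gene, Fam179a and the tetraspanin gene Tspan33, at distances of 0.126, 0.149 and 0.167. Fam179a was at 303 and 180 in the Zac1 libraries, against 56.7 and 65.7 in the CAT libraries (limma adjusted p = 0.00358). Tspan33 did not pass at 87.5 and 46.4 against 15.6 and 16.9 (limma adjusted p = 0.0545), nor did Spib at 43.8 and 27.7 against 7.79 and 8.45 (limma adjusted p = 0.139). Likeness over 4 libraries describes these values only.

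**Figure D3:**
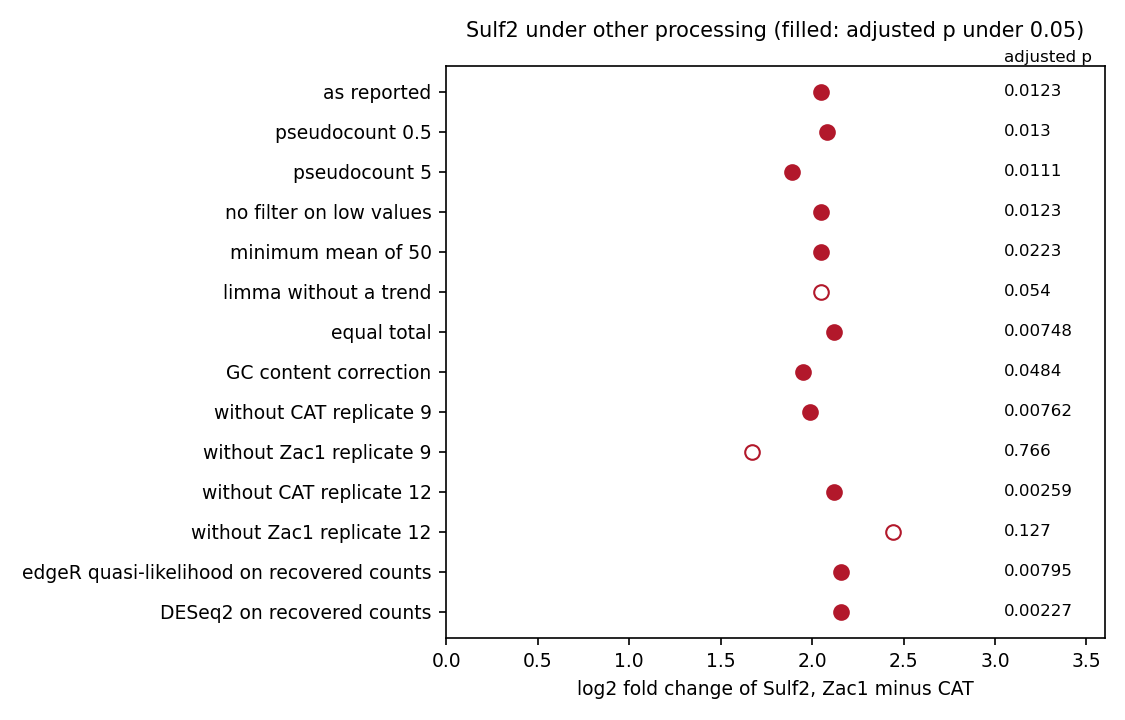
Log2 fold change of Sulf2, Zac1 minus CAT (horizontal axis, from 0), as reported and under other processing, with the adjusted p printed at the right and filled points where it is under 0.05. The fit with a replicate block is not drawn. All points lie between 1.67 and 2.44, and the open points are the fits without either Zac1 library and limma without a trend (edgeR and DESeq2 values are log2 ratios of counts).

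Genes of the steps around these enzymes were described by 8 lists drawn up from textbook knowledge. Of their 85 genes 62 had a line and 59 were tested. None of the 59 passed in limma in either direction, beside 0.962% of all tested genes called higher, and the count tests of edgeR and DESeq2 called 0 of them. At an unadjusted p under 0.05, 5 of the 59 were higher and 0 lower, beside 5.23% of all tested genes higher and 0.962% lower at that threshold. The median log2 fold change over the 59 was 0.08.

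The stem on which the chain is built is made by the linker enzymes. Of 6 genes 5 were tested, with log2 fold changes of 0.08 to 0.44. Their median was 0.19, and it was 0.03 after the correction for GC content. The xylosyltransferase gene Xylt2, which starts the stem, was at 144 and 176 in the Zac1 libraries, against 107 and 129 in the CAT libraries (limma adjusted p = 0.950), and B3galt6, a galactosyltransferase gene, was at 103 and 73.2 against 63.4 and 77.9 (0.983). The 3 EXT-like genes had a median of -0.12, from Extl3 at -0.28 to Extl1 at 0.34. Of 12 other chain-modifying genes 3 were tested, with a median of 0.40. In this list the heparan sulfate sulfotransferase gene Hs3st3b1 had a log2 fold change of 0.40 (-0.02 without Zac1 replicate 9), and Hs3st6 had 0.92 (-0.38 without CAT replicate 9). The epimerase gene Glce was at 579 and 590 in the Zac1 libraries, against 559 and 551 in the CAT libraries.

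For the supply of activated sulfate and sugar nucleotides all 10 genes were tested, with a median of 0.05. Ugdh, which makes UDP-glucuronic acid, had a normalised count of 863 and 693 in the Zac1 libraries, against 484 and 572 in the CAT libraries. The groups did not overlap, and the log2 fold change of 0.56 did not pass over all genes (limma adjusted p = 0.597). The UDP-sugar transporter gene Slc35d1 had 20.4 and 25.7 against 14.4 and 14.1 (limma adjusted p = 0.983). The 9 genes listed for lysosomal breakdown of the chain had a median of -0.11. They include Sumf1, whose product activates sulfatases and does not itself break the chain down. Idua, the iduronidase gene, was at 0.52 and Arsg, a sulfatase gene, at -0.49 (limma adjusted p = 0.955 for both).

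Of 14 genes of heparan sulfate core proteins 8 were tested, with a median of 0.23 that was -0.03 after the correction for GC content. Col18a1, the gene of a basement membrane collagen that carries heparan sulfate, had 91.3 and 65.2 in the Zac1 libraries, against 25.7 and 44.2 in the CAT libraries (log2 fold change 1.17; limma adjusted p = 0.290). Agrn, the gene of agrin, had 3205 and 2773 against 2135 and 2763, so Zac1 replicate 12 was level with CAT replicate 12. Chondroitin and dermatan sulfate are built on the same stem, and 7 of 16 genes for their synthesis were tested, with a median of 0.06. The 2 with the smallest p in this list were Csgalnact2 at -0.31 and Dse at 0.61 (limma adjusted p = 0.983 for both).

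FGF receptors bind their ligands together with heparan sulfate. Of 15 receptor and feedback genes 14 were tested, with a median of 0.01. Fgfrl1, which encodes a receptor without a kinase domain, had 80.7 and 60.3 in the Zac1 libraries, against 5.96 and 41.6 in the CAT libraries. CAT replicate 9 was far below the other 3 libraries, and the log2 fold change was 2.04 (limma adjusted p = 0.211). Which CAT library was kept decided this value, since leaving out CAT replicate 9 gave 0.73 (limma adjusted p = 1.00) and leaving out CAT replicate 12 gave 3.35 (1.62e-05). Fgfr3 had 268 and 179 against 151 and 95.6 (0.86; limma adjusted p = 0.350). Fgfr1 had 282 and 279 against 158 and 218 (0.59; limma adjusted p = 0.661). Fgfr4 had 19.5 and 5.91 against 7.77 and 7.5, so its groups overlapped (0.46; limma adjusted p = 0.983). It reached the minimum mean of 10 only through Zac1 replicate 9, so the sign of its change carries no weight. The median of 0.01 pools these receptor genes with the feedback genes. The 10 genes listed with the receptors as feedback genes ranged from -0.25 for Spry1 to 0.39 for Spred2, and none of them passed. Whether FGF signals induce each of them in these cells was not tested.

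**Figure D4:**
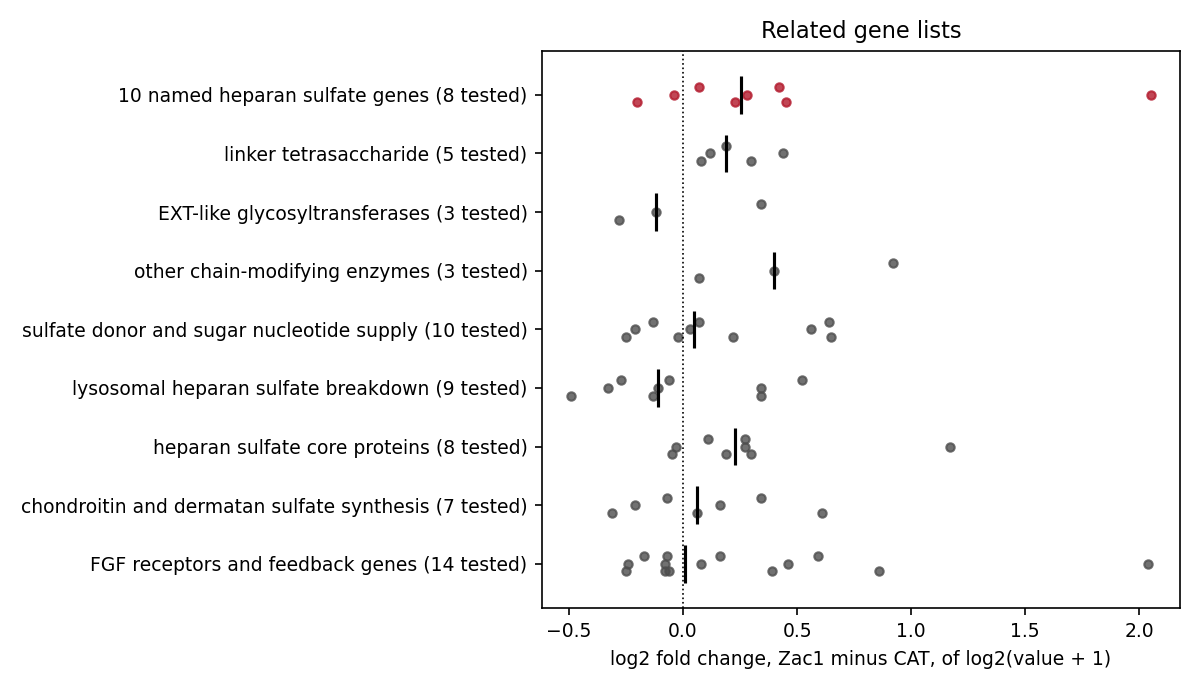
Log2 fold change, Zac1 minus CAT, of log2(value + 1) (horizontal axis) for the tested heparan sulfate genes (red) and for 8 lists of related genes (grey), 1 point per gene, with the median of each row as a black bar. Sulf2, at 2.05 in the top row, and Fgfrl1, at 2.04 in the bottom row, lie farthest to the right.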

How the data were processed

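The deposited table holds 1 normalised signal per gene for each of the 4 libraries. The name of the table calls these values TMM pseudocounts, and the submitters' processing notes list edgeR and build mm9. How tags were mapped and assigned to genes is not stated in these sources, so overlapping or near-identical genes are uncertain. Per the labels' protocols, 2 µg of total RNA and 15 cycles of PCR went into each library. Pseudocounts are counts shifted to 1 library size by negative binomial quantiles. Inverting that shift with a size per library and a dispersion of 0.0364 returned 100% of the deposited signal values from whole counts within 1e-05. Totals cover listed genes only, since each line holds at least 10 counts. The 5 lines with no gene ID (0% to 0.00897% of a library) stayed out.

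The 11433 genes with a mean of at least 10 were tested, and 1428 were under it. Tests used limma 3.58.1 in R 4.3.3 on log2(value + 1), two-sided, with a variance trend, no replicate term and Benjamini-Hochberg adjustment over all tested genes (threshold 0.05). On this scale the change of a gene with few counts comes out too small. The p-values measure the spread between 2 transfections per group, and borrow most of it from other genes of similar level (prior degrees of freedom of 14.1). Alternatives were pseudocounts of 0.5 and 5, no filter or a minimum of 50, no trend, equal totals, a replicate block, a loess correction for GC content (11156 genes), each library left out, and edgeR 4.0.16 and DESeq2 1.42.0 on recovered counts. The scripts were tested on simulated data. In each list, genes past the threshold or else the 2 with the smallest unadjusted p were named. Glce, Sumf1, Fgfr1, Fgfr4, Spry1 and Spred2 were chosen after their values were seen. The members and lists were chosen with earlier results of these data known. Count intervals reflect counting error alone and leave out the spread between transfections. They treat every tag as an independent molecule, which tags copied by PCR are not, so they may be too narrow. Some markers of the cell line are not reported here.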

Additional observations from a re-analysis of the deposited data

How the results depend on the processing

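The direction of Sulf2 held in all 14 alternatives and its call in 11 of them, with log2 fold changes of 1.67 to 2.44 and adjusted p-values of 5.74e-06 to 0.766. Its value was 2.05 (adjusted p = 0.054) in limma without a trend, and 1.67 to 2.44 over the fits that left out a library. The count of called heparan sulfate genes was 0 without a trend and 0 to 1 without a library. Over all genes the 110 calls became 67 with a minimum mean of 50, 42 after the GC correction, 279 with the replicate number as a block, and 1 to 154 without a library. Fits without a library assume that the lone library of that group varies like the other group, and 1 gene passed in each fit without a Zac1 library. The numbers 9 and 12 are not stated to pair the libraries. The deviations from group means of same-numbered libraries correlated at 0.200 over genes, the block gave Sulf2 an adjusted p of 5.74e-06, and it changed the call of no other of these genes. Of the list genes 0 passed, and 1, Fgfrl1, passed with the replicate block (2.04, adjusted p = 0.000218) and when CAT replicate 12 was left out (3.35, adjusted p = 1.62e-05), but leaving out CAT replicate 9 gave 0.73 (1.00), with 0 to 1 over the fits without a library. Values were also followed for 23 other genes. They were the other tested heparan sulfate genes and, per list, the 2 with the smallest unadjusted p. The remaining list genes are not in this count. Of the 317 values of the 23 genes, 306 kept direction and call and 9 changed sign. These were Ext2 at equal totals (0.02), Ndst1 after the GC correction (-0.08), and 7 values without a library. Without a library Ext2 ran from -0.29 to 0.21, Ndst1 from -0.18 to 0.32, Hs6st1 from -0.50 to 0.11, Hpse from -0.04 to 0.88, Hs3st3b1 from -0.02 to 0.82 and Hs3st6 from -0.38 to 2.21. Apart from the fits with fewer libraries, the cause of these differences was not tested.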
